A study of Capra hircus with 2 samples.

Results

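The miRNAs described here are the goat members of the miR-143 and miR-145 cluster. They were taken by name from a deposited table of mature miRNAs, as chi-miR-143 and chi-miR-145, with every arm present (chi is the prefix of goat miRNAs and is left out below). An arm is the strand cut from the 5′ (5p) or 3′ (3p) side of a precursor hairpin. Both arms of both precursors were there, giving 4 of the 590 listed miRNAs. The study compared small RNA of natural killer (NK) cells separated from the uterus of female goats (uNK) with that of NK cells from peripheral blood (pNK). Its title turns on miR-1. There was 1 library per group. The labels give no treatment, genotype or age. They also do not say how many animals went into each library, or by which marker the cells were separated. The table lists called miRNAs only, so some difference between the libraries was a condition for being in it.

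miR-143 and miR-145 are made from neighbouring genes that are usually transcribed together. In mouse and human their transcription is driven in smooth muscle by serum response factor with its coactivator myocardin. The pair is known for holding smooth muscle cells in their contractile state, where miR-145 represses the transcription factors KLF4 and KLF5 and miR-143 represses ELK1. Both are abundant in smooth muscle and other mesenchymal cells and low in lymphocytes. The uterine wall holds much smooth muscle and stroma. In the goat gene table used here, the genes MIR145 and MIR143 lie next to each other with no other gene between them, and CSNK1A1 is the gene on the MIR145 side.

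The libraries held about 31800000 reads for uNK and 30100000 for pNK, as implied by the deposited values. Which reads these totals count (clean, mapped or other) is not given, so all reads of a library means the implied total here. Values are read counts and reads per 1000000 reads of the library (RPM). Replicate error could not be measured, since each group is a single library, and no test between the groups was made. Intervals are exact Clopper-Pearson 95% intervals, which cover counting error only. They say nothing of differences between animals, separations or library preparations.

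miR-143 and miR-145 were higher in the uNK library in all 4 arms, by 10.4-fold to 22.5-fold. Of all 590 listed miRNAs, 38.0% were called higher in uNK in the authors' deposited table, and 18.8% were at least 10-fold higher on the RPM scale. Of the 314 with goat names (annotated), 170 were called higher. Among the 254 annotated miRNAs with at least 100 reads in the higher library, 80 had a higher log2 ratio than miR-145-3p, the lowest cluster arm. The other cluster arms are among the 80. All values are RNA levels of whole cell preparations, in which more cells of a type and more of a miRNA per cell cannot be told apart. The 4 arms span more than 3 orders of magnitude in level, and they kept the same order of levels in both libraries. From high to low this order was miR-143-3p, miR-145-5p, miR-145-3p and miR-143-5p.

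chi-miR-143-3p, the main arm of its precursor and the strand through which miR-143 is known to act, had 5373043 reads in uNK and 346400 in pNK. These are 169065 RPM in uNK and 11522 RPM in pNK. The ratio was 14.7-fold, with an interval of 14.6 to 14.7, or 3.88 on the log2 scale. miR-143-3p was the most abundant listed miRNA of the uNK library and the 9th of the pNK library.

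chi-miR-145-5p, the main arm of miR-145 and the one that represses KLF4 and KLF5, had 101282 reads in uNK and 7363 in pNK, or 3187 RPM in uNK and 245 RPM in pNK. It was 13.0-fold higher in uNK, with an interval of 12.7 to 13.3 and a log2 ratio of 3.70. Its place among the listed miRNAs was 17th in uNK and 74th in pNK. The interval lies below that of miR-143-3p, so the difference between the 2 main arms is larger than counting error, though small beside the ratios themselves.

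The minor arms, which are the strands usually degraded, departed further from each other. miR-143-5p had 2733 reads in uNK and 115 in pNK, or 86.0 RPM in uNK and 3.83 RPM in pNK. It was 22.5-fold higher in uNK, with an interval of 18.7 to 27.3 and a log2 ratio of 4.49. miR-145-3p had 4216 reads in uNK and 384 in pNK, or 132.7 RPM in uNK and 12.8 RPM in pNK. Its ratio of 10.4-fold, with an interval of 9.35 to 11.6 and a log2 value of 3.38, was the lowest of the 4. The minor arm of miR-143 thus had a higher ratio than its main arm, and the minor arm of miR-145 a lower one.

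**Figure D1:**
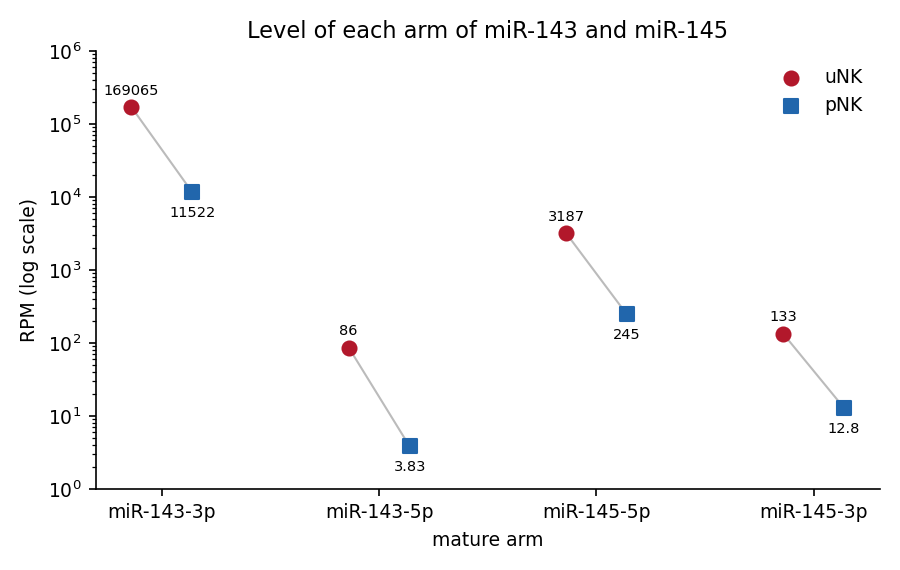
RPM of each mature arm on a log axis, with the uNK library as circles and the pNK library as squares, 1 library each, so no error bars are drawn. All 4 arms stand higher in uNK, and the main arms miR-143-3p (169065 against 11522 RPM) and miR-145-5p (3187 against 245 RPM) stand far above the minor arms.

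In the authors' deposited table the log2 ratios of the 4 arms were 4.22 for miR-143-3p, 4.84 for miR-143-5p, 4.05 for miR-145-5p and 3.72 for miR-145-3p, each called higher in uNK. They lie 0.35 above the RPM scale for every arm, so the order of the arms is the same on both scales.

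The abundance of miR-143-3p set it apart from the rest of the listed uNK reads. It took 45.2% of them, with an interval of 45.18 to 45.24%, against 2.42% of the listed pNK reads, with an interval of 2.416 to 2.432%. Of all reads of the library it took 16.9% in uNK and 1.15% in pNK. It was 6.56 times as abundant as let-7b-5p, the next listed miRNA of uNK, and the 20 next listed miRNAs together were needed to reach its count. In pNK the leading listed miRNA was miR-21-5p, at 161133 RPM, and miR-143-3p stood at 0.0715 times its level. miR-145-5p took 0.852% of the listed reads in uNK and 0.0515% in pNK.

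RPM is relative to all reads of a library, so a miRNA with such a share lowers the RPM of every other one. Together the 4 arms took 17.2% of all uNK reads and 1.18% of all pNK reads. The other 586 listed miRNAs summed to 6403286 reads in uNK and 13936820 in pNK. With the 4 arms left out of both library totals, every log2 ratio of uNK over pNK moved up by 0.26.

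**Figure D2:**
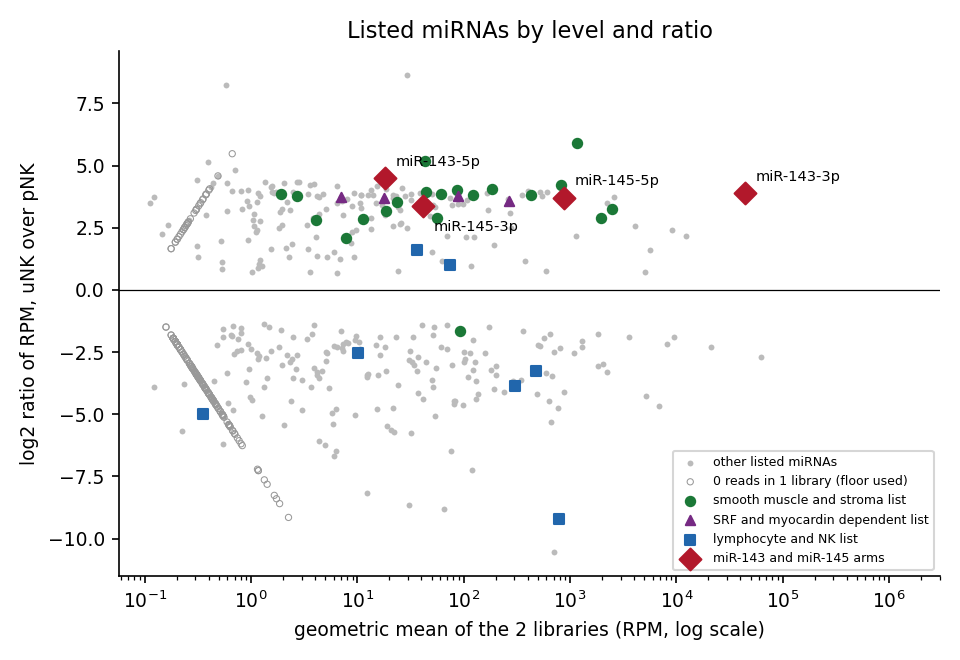
Each listed miRNA by the geometric mean of its RPM in the 2 libraries (log axis) and its log2 ratio of RPM, uNK over pNK, with 3 reads put in place of a count of 0 (open circles). The miR-143 and miR-145 arms (diamonds) lie at log2 ratios of 3.38 to 4.49 in the band of the smooth muscle and stromal miRNAs, with miR-143-3p near the right end beside miR-21-5p, and the gap around 0 is the filter of the deposited table.

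The balance of the 2 arms within a precursor does not depend on how the libraries are scaled. For miR-143, 1966 reads of 3p were counted per read of 5p in uNK (1894 to 2042) and 3012 in pNK (2509 to 3649). Put as the share of 5p among the reads of both arms, this was 0.0508% in uNK (0.0490 to 0.0528%) and 0.0332% in pNK (0.0274 to 0.0398%). The 5p over 3p ratio was 1.53 times as high in uNK as in pNK, with bounds of 1.23 to 1.93 taken from the ends of both intervals.

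For miR-145 the main arm is the 5p. It had 24.0 reads per read of 3p in uNK (23.3 to 24.8) and 19.2 in pNK (17.3 to 21.3). The 5p over 3p ratio was 1.25 times as high in uNK, with bounds of 1.09 to 1.43. Measured as 5p over 3p, the ratio was thus higher in uNK for both precursors. Read as main over minor arm, it was lower in uNK for miR-143 and higher in uNK for miR-145.

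These differences were among the smaller ones in the table. Of 94 precursors with both arms listed, 68 had at least 10 reads per arm in each library, and in 39 of these, or 57.4%, the arm ratios of the 2 libraries were 1 log2 unit or more apart. Neither miR-143, at 0.62, nor miR-145, at 0.33, was among them. The median absolute difference was 1.10. A larger difference than that of miR-143 was seen in 48 of the 68 precursors, and one larger than that of miR-145 in 52. Neither precursor changed its main arm, whereas 6 of the 68 did.

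The excess of 3p over 5p in miR-143 was among the strongest arm biases of these 68 precursors. Precursors with fewer than 10 reads of an arm in a library were left out, so some stronger biases may be missing. Of the 68 precursors, 4 had a smaller share of their minor arm in uNK, and none had a smaller one in pNK. For miR-145 the minor arm share was ordinary, with 35 precursors below it in uNK and 41 in pNK. The median minor arm share over the 68 precursors was 3.47% in uNK and 3.11% in pNK.

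**Figure D3:**
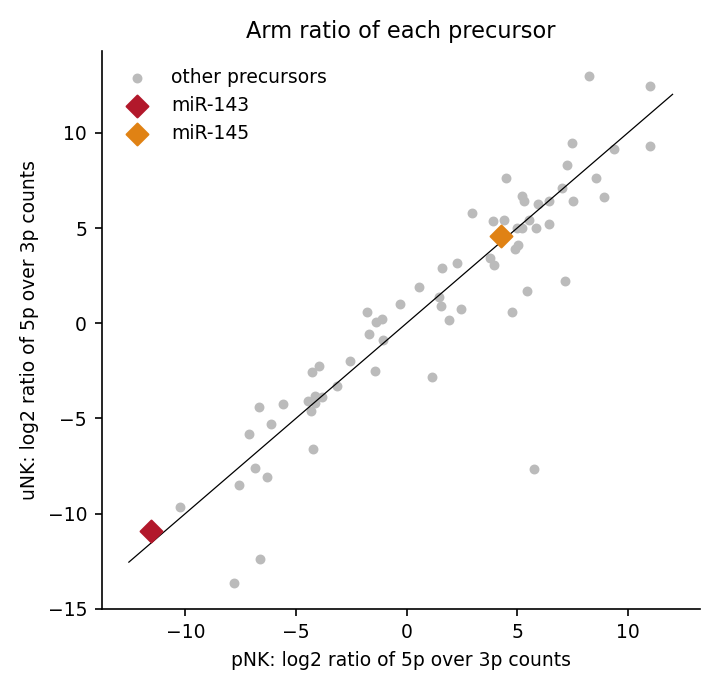
Log2 ratio of 5p over 3p counts in uNK (vertical) against pNK (horizontal) for the 68 precursors with at least 10 reads per arm in each library, with the line of equal ratios. miR-143 lies at the 3p end and miR-145 on the 5p side, both close to the line, with differences of 0.62 and 0.33 on the log2 scale.

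The ratio between the main arms of the cluster mates was close in both libraries. For each read of miR-145-5p there were 53.1 reads of miR-143-3p in uNK (52.7 to 53.4) and 47.0 in pNK (46.0 to 48.2). The ratio was 1.13 times as high in uNK, with bounds of 1.09 to 1.16, a difference of 0.17 on the log2 scale that exceeds counting error. Library preparation recovers some small RNAs better than others, so the ratio of 2 miRNAs within a library need not be their ratio in the cell.

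Between the minor arms the picture was different. miR-143-5p had 0.648 reads per read of miR-145-3p in uNK (0.618 to 0.680) and 0.299 in pNK (0.241 to 0.370). This ratio was 2.16 times as high in uNK, with bounds of 1.67 to 2.82. The pNK value rests on 115 reads of miR-143-5p and 384 of miR-145-3p.

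Other neighbouring miRNA genes gave a measure for this. Of genes within 10 kb of each other in the ARS1.2 gene table, 72 adjacent pairs had at least 10 reads in each library, taking the most abundant listed arm. An arm that was not listed could not be taken, even where it was the main one. Some genes enter several pairs, and many pairs come from a single run of genes, from miR-379 to miR-410. The pairs are thus not independent of each other. The 2 mates of a pair differed in their log2 ratio of uNK over pNK by a median of 0.47. miR-143-3p and miR-145-5p differed by 0.17, with 16 pairs closer and 55 further apart. The level of the mates was less equal than usual: their counts differed by 5.73 log2 units in uNK and 5.56 in pNK, against medians over the pairs of 2.30 in uNK and 2.51 in pNK. A wider gap was found in 10 pairs in uNK and in 11 in pNK.

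**Figure D4:**
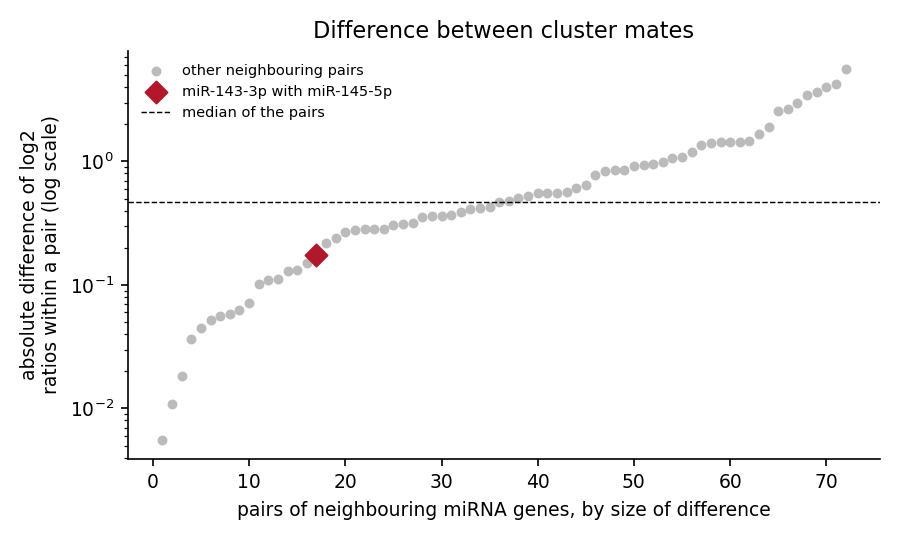
Absolute difference between the log2 ratios (uNK over pNK) of the 2 mates in each of 72 pairs of neighbouring miRNA genes, ordered by size on a log axis. The pair of miR-143-3p and miR-145-5p (diamond), at 0.17, lies below the median of 0.47 (dashed line), with 16 pairs closer.

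The miRNAs whose ratio was closest to that of the members were of several kinds. Likeness was the distance between log2 ratios over the 2 libraries, among the 254 annotated miRNAs with at least 100 reads in the higher one, so it describes a single contrast. Of these, 35 had a higher log2 ratio than miR-143-3p and 59 a higher one than miR-145-5p. Closest to miR-143-3p were miR-381, miR-376a, miR-10b-3p, miR-96 and miR-383, at 14.5-fold to 14.7-fold. Of these, miR-376a had 202 reads in uNK and 13 in pNK, and its interval ran from 8.40-fold to 28.1-fold. With a minimum of 500 reads, 2 of the 5 names remained.

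Closest to miR-145-5p was miR-133b, a muscle miRNA, with 2022 reads in uNK and 147 in pNK. Its ratio of 13.0-fold had an interval of 11.0 to 15.5. It was followed by miR-369-3p, miR-592, miR-655 and miR-200c, the last an epithelial miRNA, at 12.6-fold to 13.0-fold. All 5 names remained with a minimum of 500 reads. miR-369-3p and miR-655, like miR-381 and miR-376a above, belong to the run of genes from miR-379 to miR-410. In the pairs above, the arms of that run had log2 ratios from 2.46 (miR-409-3p) to 4.35 (miR-412-5p).

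The other muscle miRNAs moved by much the same ratio as the cluster. miR-1 of the study's title and miR-133a, which like the cluster depend on serum response factor in muscle, were both higher in uNK. miR-1 stood at 916 RPM in uNK and 76.4 RPM in pNK, a ratio of 12.0-fold (11.5 to 12.5). miR-133a-3p stood at 324 RPM in uNK and 23.9 RPM in pNK, a ratio of 13.6-fold (12.6 to 14.7). With miR-133b and miR-206, the listed muscle miRNAs outside the cluster were higher in uNK in 4 of 4, beside 170 of the 314 annotated miRNAs. Their median log2 ratio was 3.72. miR-143-3p alone had 185 times the RPM of miR-1 in uNK and 151 times in pNK.

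The smooth muscle and stromal list, like the others, was chosen with earlier results of these data known, so its counts are a description only. Besides the cluster it names miR-199a, miR-199b, miR-199c, miR-214, miR-100, miR-99a, miR-125b, miR-195, miR-497, miR-152, miR-10a and miR-10b. Without the cluster it held 20 listed arms, of which 19 were higher in uNK and 1 lower. Both arms of some precursors and neighbouring genes such as miR-195 and miR-497 are among them, so the arms are not independent. Over the 314 annotated miRNAs, 170 were higher and 144 lower. The 20 arms had a median log2 ratio of 3.79, against -2.20 over all 590 listed miRNAs and 1.15 over the 314 annotated ones. Its most abundant other members were miR-199b-3p at 9016 RPM in uNK and 149 RPM in pNK, miR-99a-5p at 7569 RPM in uNK and 798 RPM in pNK, and miR-199c-3p at 5390 RPM in uNK and 725 RPM in pNK. The exception was miR-10a-5p, a miRNA of a Hox gene cluster, which was 3.15-fold lower in uNK (2.98 to 3.34). The other arm of its precursor, miR-10a-3p, was 4.27-fold higher in uNK (3.48 to 5.28). Summed, the 20 arms stood at 29744 RPM in uNK and 2317 RPM in pNK, well under miR-143-3p by itself in each library. miR-199 and miR-214, which mark stromal cells, were spread more widely than the cluster, with 7 arms at log2 ratios of 2.84 to 5.92. The 3p arms of miR-199 carry close names and their reads could be shared between them, so their single values are uncertain.

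Epithelial, endothelial and red cell miRNAs were also higher in uNK, whereas most lymphocyte and NK miRNAs and both arms of miR-223 were lower. Median log2 ratios were 3.66 for the epithelial arms, 2.54 for miR-126 and 1.46 for the red cell arms, beside 3.38 to 4.49 for the cluster arms. Of the names on each list, the table held 13 of 14 for smooth muscle and stroma, 5 of 7 for epithelium, 6 of 8 for lymphocytes and NK cells, and 2 of 3 for red cells. All 5 listed epithelial arms, of the miR-200 family, were higher in uNK and summed to 3592 RPM in uNK and 257 RPM in pNK. Both arms of miR-126, an endothelial miRNA, were higher, at 10555 RPM in uNK and 1769 RPM in pNK. The red cell miRNAs miR-451 and miR-144 were higher in all 4 arms, by 1.59-fold (miR-144-3p) to 4.34-fold (miR-144-5p). For miR-451-3p, with 16 reads in uNK and 6 in pNK, the interval of 0.938 to 7.87 included equal levels. The 4 arms summed to 9817 RPM in uNK and 3258 RPM in pNK, nearly all of it miR-451-5p (9800 RPM in uNK and 3251 RPM in pNK). Of the 8 listed arms of lymphocyte and NK miRNAs, 6 were lower in uNK and 2 higher. Over all 590 listed miRNAs 62.0% were lower, so the count is near the share in the whole table. Among the 314 annotated ones, to which all names on these lists belong, 144 were lower and 170 higher. The lymphocyte and NK list summed to 438 RPM in uNK and 21785 RPM in pNK. Among these miR-150, high in mature lymphocytes, stood at 32.2 RPM in uNK and 19052 RPM in pNK, miR-155-5p at 153 RPM in uNK and 1464 RPM in pNK, and miR-342-3p at 79.5 RPM in uNK and 1168 RPM in pNK. The 2 higher ones were of the miR-181 family, which acts in lymphocyte development. Another listed arm of that family, miR-181b-3p, was among the 6 lower, with 0 reads in uNK and 8 in pNK. miR-181d was 3.02-fold higher (2.76 to 3.31), at 63.2 RPM in uNK and 20.9 RPM in pNK, and miR-181c-5p 1.98-fold higher (1.86 to 2.10), at 106 RPM in uNK and 53.4 RPM in pNK. Both arms of miR-223, the miRNA of granulocytes and monocytes, were lower, at 21.1 RPM in uNK and 28632 RPM in pNK.

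The part of these cell types in the level of miR-143 and miR-145 was not tested. None of the smooth muscle, stromal, muscle or epithelial arms was at 0 reads in pNK. Such zeros were few in the whole table, with 37 of the 590 listed miRNAs at 0 reads in pNK. Of the 314 annotated miRNAs, 10 were at 0 reads in either library. The absence of zeros therefore does not set these arms apart.

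Set against each other as counts, the pNK reads of miR-143-3p were 6.45% of its uNK reads (6.42 to 6.47%). The share was 7.27% for miR-145-5p (7.10 to 7.44%), 9.11% for miR-145-3p (8.18 to 10.1%) and 4.21% for miR-143-5p (3.46 to 5.07%). Medians were 7.16% for the 4 other muscle miRNAs, 6.84% for the 20 other smooth muscle and stromal arms, 7.50% for the epithelial arms and 16.3% for miR-126.

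**Figure D5:**
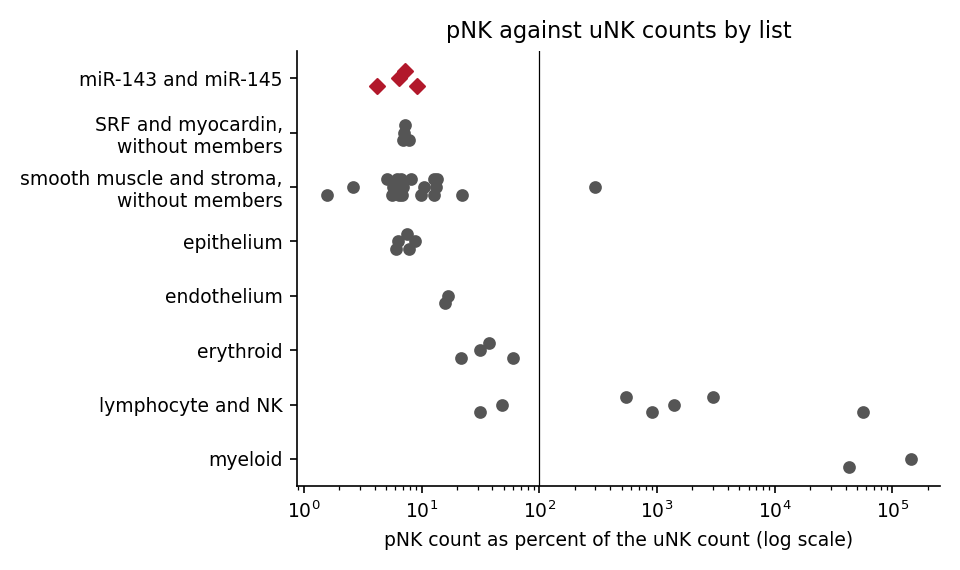
The pNK count as a percentage of the uNK count for every listed arm of each list with reads in uNK, on a log axis, with a line at equal counts. The 4 arms of miR-143 and miR-145 (diamonds) lie at 4.21 to 9.11%, among the muscle, stromal and epithelial miRNAs, while the lymphocyte miRNA miR-150 and both miR-223 arms lie far to the right of the line.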

How the data were processed

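The analysis used 1 deposited table of a comparison named for DEGseq, with 590 mature miRNAs, 314 with goat names and 276 predicted. Per the file headers it holds read counts. The columns headed expression behave as RPM values in the deposited table, since count over value is constant within a library, and a count of 0 is written as 0.001. The log2 ratio of uNK over pNK, the p-value and the q-value are the authors' own, per the file headers. No absolute log2 ratio there is under 1.01. Total RNA had been isolated with Trizol, per the labels' protocols. Which library kit, aligner, build and miRNA annotation were used is not given in the sources used here.

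Groups came from the source names. Library totals (about 31800000 reads for uNK and 30100000 for pNK) were counts over RPM, summed over miRNAs with many reads. Listed miRNAs took 37.4% of the uNK reads and 47.5% of the pNK reads. Folds are ratios of counts over these totals, with exact 95% intervals. A count of 0 was replaced by a floor of 3 counts (0.0944 RPM in uNK, 0.0998 RPM in pNK) in ranks and medians. Differences of ratios were bounded by the ends of both intervals. The coverage of the intervals was checked on simulated counts with counting (Poisson) error only. Such counts hold no differences between animals or libraries, so the check says nothing of those. Neighbouring genes came from a RefSeq gene table of ARS1.2, used only for which genes adjoin.

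The members and lists were chosen with earlier results of these data known. Named were the 4 arms, the 5 annotated miRNAs nearest in ratio to each main arm, miR-1, and abundant members of each list. The rule's part on shared seeds was not used here. Alternatives were scaling by listed totals, median ratio, TMM (edgeR 4.0.16, R 4.3.3), totals without the members and the authors' ratio, added counts or RPM, summed or minor arms, other denominators and count minimums. Python 3.11.15, numpy 2.4.6, pandas 2.3.3, scipy 1.17.1 and matplotlib 3.10.9 were used.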

Additional observations from a re-analysis of the deposited data

How the results depend on the processing

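No paired analysis was possible because uNK and pNK are 1 library each, so no library could be left out either. No direction turned under any alternative run, for which the filter of the table leaves little room. The log2 ratio of miR-143-3p, 3.88 as reported, was 4.22 with the totals of the listed miRNAs, 3.21 with the median ratio, 4.62 with TMM, 4.13 without the members in the totals and 4.22 in the authors' deposited table. The last of these was added once the data had been seen. That of miR-145-5p, 3.70 as reported, was 4.05, 3.03, 4.44, 3.96 and 4.05 under the same alternatives. A scaling shifts all miRNAs alike, and the listed miRNAs are all called ones, so none of these rests on unchanged miRNAs. A pseudocount of 5 RPM lowered the log2 ratio of miR-143-5p from 4.49 to 3.37 and that of miR-145-3p from 3.38 to 2.95. The share of miR-143-3p was 16.9% of all uNK reads and 1.15% of all pNK reads, and 45.4% and 2.52% of the listed annotated reads. That of miR-145-5p was 0.319% of all uNK reads and 0.0245% of all pNK reads, and 0.0537% of the listed annotated pNK reads. The log2 difference of the mate ratio was 0.17 with the main arms, 0.19 with arms summed and 1.11 with the minor arms. The arm ratio differences stayed within their bounds with 0.5 or 5 counts added. The smooth muscle and stromal list, members included, kept 23 arms higher and 1 lower in each alternative that kept its members, and 19 and 1 without them. Depth limits the minor arms most, with 115 pNK reads of miR-143-5p.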

Other observations

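The nearest annotated miRNA genes beyond the cluster on the same chromosome of the goat gene table, looked up after the values were seen, gave different directions. No limit of distance was set for them, unlike for the pairs above, so they need not lie close to the cluster. On the MIR145 side, miR-378-3p was 3.38-fold lower in uNK (3.33 to 3.42), at 992 RPM in uNK and 3350 RPM in pNK, and miR-378-5p was 11.2-fold lower (9.27 to 13.7), at 3.71 RPM in uNK and 41.6 RPM in pNK. On the MIR143 side, miR-874-3p was higher, with 1984 reads in uNK and 299 in pNK, or 62.4 RPM in uNK and 9.95 RPM in pNK. miR-874-5p was higher too, with 80 reads in uNK and 15 in pNK. No test of these values was made across animals, since there was 1 library per group.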
